A study of Mus musculus with 7 samples.

Results

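The genes described here are 9 mouse genes that act between foreign or misplaced nucleic acid in a cell and the induction of interferon. They were given by name: Ddx58 (also called Rigi), Ifih1, Dhx58, Mavs, Tbk1, Irf3, Irf7, Zbp1 and Eif2ak2. All 9 were found among the 53465 genes of the deposited table, and all 9 were among the 15645 genes that passed the filter on low counts.

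RNA was measured in whole tumors grown from EMT6, a mouse mammary carcinoma cell line, after 500000 cells had been placed in the mammary fat pad of female Balb/c mice aged 6 to 8 weeks. EMT6-P, the parental group, comprised 3 tumors of mice given an isotype control antibody. EMT6-PTR, the group resistant to αPD-L1 (an antibody that blocks the PD-L1 checkpoint ligand, written PDR in the labels), comprised 3 tumors labelled as the resistant variant and given αPD-L1, plus 1 library labelled as a metastasis of that variant. Either antibody was given at 250 μg per mouse every 3 days from day 1 until the institutional endpoint. The series' design has the sequenced tissue collected at that endpoint, while the labels give the resistant tumors as a variant of their own, so whether they grew from cells already selected for resistance is not settled in the sources used here. All EMT6-PTR libraries carried both the variant label and the αPD-L1 treatment, and the 2 cannot be told apart here. Replicates in the study's figures are technical unless stated otherwise, so libraries called separate tumors here may not all come from separate animals. The labels number the replicates without tying them to animals and call the tissue of every library breast tumor, without naming the organ of the metastasis. Summed over genes, EMT6-P replicates 1 to 3 held 20476480, 21936692 and 20624015 estimated counts, EMT6-PTR replicates 1 to 3 held 21433396, 20430110 and 25213472, and the metastasis held 24592782.

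RIG-I, the product of Ddx58, and MDA5, the product of Ifih1, are cytosolic helicases that bind double-stranded RNA, and LGP2, the product of Dhx58, is a relative without signaling domains that modulates them. Bound RIG-I and MDA5 assemble the mitochondrial adaptor MAVS, through which the kinase TBK1 phosphorylates the transcription factors IRF3 and IRF7, which then induce type I interferon. ZBP1 binds nucleic acid in the Z conformation and engages the kinase RIPK3, and PKR, the product of Eif2ak2, is a kinase that binds double-stranded RNA and halts translation through eIF2α. Ddx58, Ifih1, Dhx58, Irf7, Zbp1 and Eif2ak2 are themselves induced by interferon in many cell types, through factors bound at the interferon-stimulated response element (ISRE), whereas Mavs, Tbk1 and Irf3 are usually described as constitutive.

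Sequence around the start sites is shown because it separates members by the letters of that element. RefSeq start-site windows, 250 bases before to 50 bases from the start in build GRCm38.p6, were held for 7 of the 9 genes and not for Dhx58 and Zbp1. Each was searched on both strands for the ISRE core, a pair of GAAA separated by any 2 bases, and 3 of the 7 held it, against 3.44% of all 32851 windows. In the stretches below, written 5′ to 3′ on the strand of the gene, capitals mark the match. With the start counted as +1, the Ddx58 match lay at +3 to +12 and read the core on the opposite strand, the Ifih1 match lay at +33 to +42, and the Eif2ak2 match lay at +19 to +28.
Ddx58, chr4:40239804-40239833, minus strand: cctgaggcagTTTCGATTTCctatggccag
Ifih1, chr2:62646206-62646233, minus strand: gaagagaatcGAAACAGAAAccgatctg
Eif2ak2, chr17:78882535-78882564, minus strand: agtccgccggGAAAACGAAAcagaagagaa

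The gamma-activated motif GAS, searched as TTCNNNGAA, which reads the same on both strands and overlapped none of the ISRE matches, stood in 1 of the 7 windows and in 8.30% of all windows. That 1 match was also in the Eif2ak2 window, at -178 to -170.
Eif2ak2, chr17:78882732-78882760, minus strand: ctgcagagctTTCCCAGAAtggaagccag

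None of the windows of Mavs, Tbk1, Irf3 and Irf7 held either set of letters. A match describes the letters only, and the windows follow RefSeq's starts, not starts measured in these tumors.

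Several libraries stood apart from the others before any member was considered. The gene CT010467.1 took 13.8% of the estimated counts of EMT6-PTR replicate 2, compared with 0.442% and 0.508% in EMT6-PTR replicates 1 and 3 and 1.27% to 1.35% in EMT6-P. In EMT6-PTR replicate 3, the summed level of 8 epithelial markers was 617 CPM (the unit of all levels here, the count of a gene scaled to the size of its library by the upper-quartile method), against 2398 to 2735 CPM in the other 5 tumors. Its most abundant epithelial marker, Krt8, was at 505 CPM against 1685 to 1898 CPM. The 7 fibroblast markers summed to 16636 CPM in the same tumor, against 3434 to 6227 CPM in the others, with Col3a1 as the most abundant. All 7 had a log2 difference above 0 between EMT6-PTR and EMT6-P, with a median of 1.85 and overlapping groups. In edgeR 2 of them had an unadjusted p under 0.05 and none was called. The 5 pan-leukocyte markers, led by Laptm5, summed to 336 CPM in EMT6-PTR replicate 3 and to 473 to 580 CPM in the other tumors. The 5 skeletal muscle markers, led by Acta1, ranged among the tumors from 3.5 CPM in EMT6-PTR replicate 3 to 3323 CPM in EMT6-PTR replicate 1, with 584, 9.0 and 328 CPM in EMT6-P. In the metastasis, 7 lung markers summed to 8767 CPM, led by Scgb1a1, against 1.4 to 26.1 CPM in the 6 tumors, and 7 neutrophil markers, led by S100a9, summed to 2944 CPM against 24 to 57 CPM. Among the tumors the lung sums were 3.02, 1.45 and 1.98 CPM in EMT6-P and 3.19, 26.1 and 12.2 CPM in EMT6-PTR, with the groups apart. Nearly all of this was Ager, a receptor abundant in alveolar cells (log2 difference 3.08, SE 0.74, edgeR adjusted p = 0.421), while Sftpc, Sftpa1, Sftpd and Scgb1a1 were at 0 in the 3 EMT6-PTR tumors. No gene of the 12 marker lists was at 0 in all 7 libraries.

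The 8 macrophage markers, led by C1qa, summed to 1824, 1505 and 1723 CPM in EMT6-P, 1812, 1576 and 1496 CPM in EMT6-PTR and 1373 CPM in the metastasis. Plasmacytoid dendritic cells, a major source of type I interferon that express Irf7 constitutively, were represented by 7 markers that summed to at most 37.7 CPM, most of it from Cox6a2, in EMT6-PTR replicate 1. Cox6a2 was at 4.09, 0.280 and 3.40 CPM in EMT6-P and 37.0, 1.39 and 0.117 CPM in EMT6-PTR. Its 3 highest tumors were also the 3 with the highest skeletal muscle sums, EMT6-PTR replicate 1 at 3323 CPM and EMT6-P replicates 1 and 3 at 584 and 328 CPM. The part of muscle in the 37.7 CPM was not tested. Siglech, which defines plasmacytoid dendritic cells, had too few counts to pass the filter. It had 3, 2 and 2 counts in EMT6-P, 9, 10 and 13 counts in EMT6-PTR and 2 in the metastasis, or 0.146, 0.0934 and 0.0943 CPM against 0.393, 0.557 and 0.508 CPM, with the tumor groups apart. The other 6 markers did not share this pattern. Cd209d had 4, 1 and 0 counts in EMT6-P and 0 in every EMT6-PTR library, and Ccr9, Klk1, Pacsin1, Cox6a2 and Ly6d overlapped between the groups. The 7 T cell markers, led by Lck, summed to 10.6, 7.6 and 9.3 CPM in EMT6-P, 9.4, 24.3 and 10.3 CPM in EMT6-PTR and 38.2 CPM in the metastasis. All 6 of them that were tested had a log2 difference above 0 between EMT6-PTR and EMT6-P, with a median of 0.68, and none was called. Cd8a, which marks cytotoxic T cells, was at 1.02, 0.561 and 0.613 CPM in EMT6-P and 1.83, 3.62 and 1.17 CPM in EMT6-PTR, with the groups apart (log2 difference 1.58, SE 0.53, edgeR adjusted p = 0.427). B cell markers, led by Cd79a, summed to 0.56 to 8.9 CPM in the tumors, highest in EMT6-PTR replicate 2. Endothelial markers, led by Pecam1, summed to 97 to 158 CPM in the tumors and 669 CPM in the metastasis. Adipocyte markers summed to 15.5, 9.8 and 20.2 CPM in EMT6-P, 30.2, 22.1 and 20.4 CPM in EMT6-PTR and 14.7 CPM in the metastasis, with the tumor groups apart. Almost all of it was Fabp4 (log2 difference 0.69, SE 0.30, edgeR adjusted p = 0.444). The part of cell composition in the differences described next was not tested. In whole-tumor RNA, fewer cells of a type and less RNA per cell cannot be told apart.

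The question for the tumors was whether the sensing genes differed between EMT6-PTR and EMT6-P. In edgeR's quasi-likelihood fit over 15645 genes, adjusted by Benjamini-Hochberg, 0 of the 9 genes and 0.0% of all genes passed an adjusted p of 0.05, and the smallest adjusted p of any gene was 0.421. At an unadjusted p under 0.05 there were 1786 genes, or 11.4%, and none of the 9. DESeq2 called 281 genes, none of them among the 9, and limma-voom called 0. The fitted log2 difference was above 0 for 7 members and below 0 for 2, with a median of 0.18, against a median of 0.025 and 52.3% above 0 over all genes tested. Without EMT6-PTR replicate 2, 5 members were above 0 and 4 below, with a median of 0.0071 against 0.016 over all genes. Ddx58 alone had all 3 EMT6-PTR values above all 3 EMT6-P values, while 9.52% of all genes did so, 11.8% had all 3 below, and 21.3% were apart in either direction. The EMT6-PTR tumors varied far more among themselves than the EMT6-P tumors, with a common dispersion (the squared coefficient of variation beyond counting) of 0.247 against 0.0266. The members had between 270 and 2724 counts in each library, so that the counting error of a single value was between 6.08% and 1.92%.

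**Figure D1:**
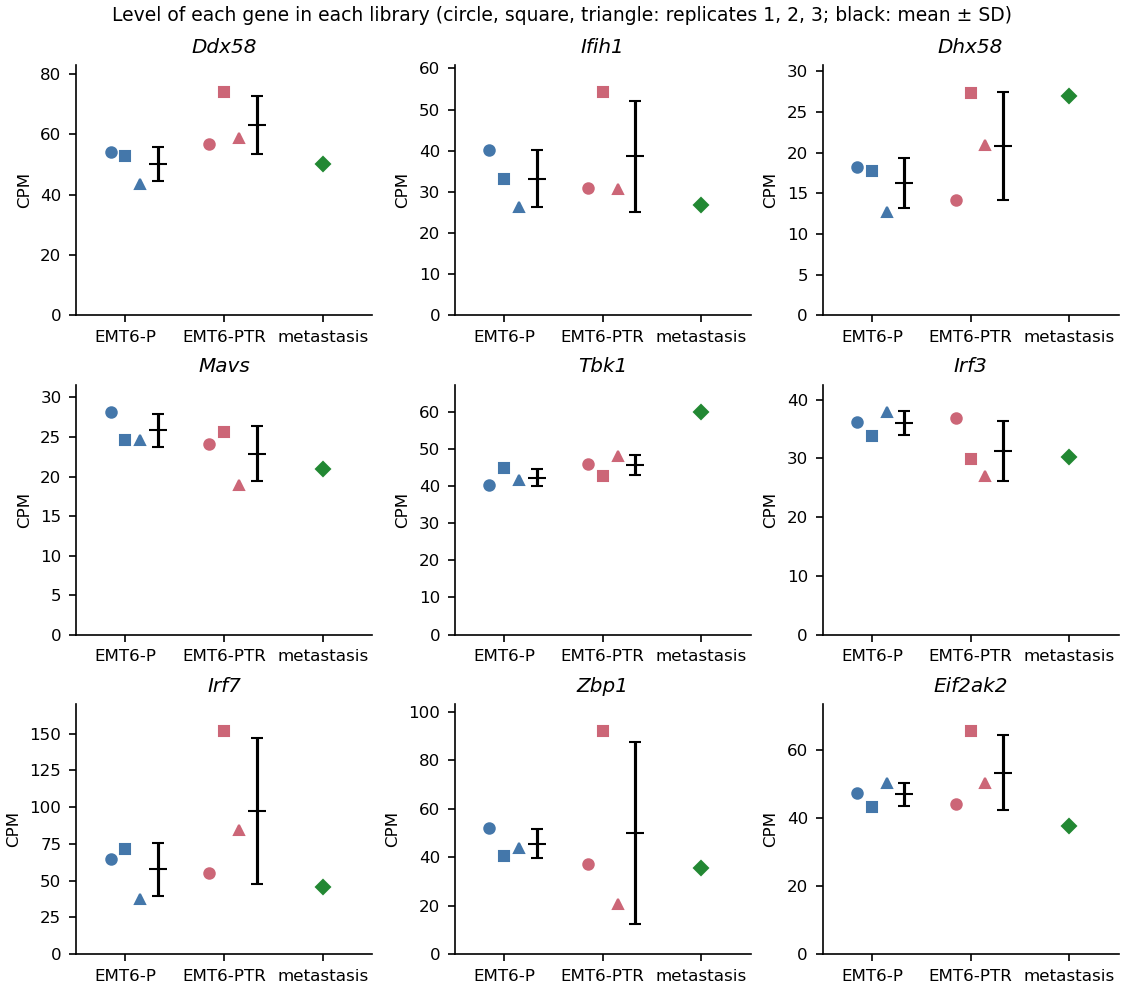
Level of each of the 9 genes in CPM on the vertical axis for the 3 EMT6-P tumors, the 3 EMT6-PTR tumors and the metastasis, with replicates 1 to 3 as circle, square and triangle and the mean and SD of each tumor group in black. The square of EMT6-PTR replicate 2 is the highest EMT6-PTR value in 7 of the 9 panels, and only in the Ddx58 panel do the tumor groups not overlap.

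Among the RNA helicases, Ddx58 (ENSMUSG00000040296.15, chr4:40203773-40239828, minus strand, GRCm38) was at 54.0, 52.8 and 43.6 CPM in EMT6-P and 56.7, 74.0 and 58.6 CPM in EMT6-PTR replicates 1 to 3. The groups lay apart, with EMT6-PTR replicate 1 just above EMT6-P replicate 1. The means were 50.1 ± 5.71 CPM and 63.1 ± 9.50 CPM (SD, n = 3 each), with a log2 difference of 0.33 (SE 0.16, 95% interval -0.057 to 0.72, edgeR adjusted p = 0.468). Ifih1 (ENSMUSG00000026896.14, chr2:62595798-62646255, minus strand) was at 40.2, 33.1 and 26.3 CPM in EMT6-P and 31.0, 54.2 and 30.6 CPM in EMT6-PTR. EMT6-PTR replicate 2 lay above all EMT6-P tumors and the other 2 lay within their range. Its log2 difference was 0.22 (SE 0.28, 95% interval -0.46 to 0.89, adjusted p = 0.756), and it became -0.11 without EMT6-PTR replicate 2. Dhx58 (ENSMUSG00000017830.15, chr11:100694884-100704271, minus strand) was at 18.3, 17.7 and 12.7 CPM in EMT6-P and 14.1, 27.4 and 20.9 CPM in EMT6-PTR, where replicates 2 and 3 lay above the EMT6-P range and replicate 1 inside it. The log2 difference was 0.36 (SE 0.28, 95% interval -0.32 to 1.03, adjusted p = 0.610), or 0.11 with EMT6-PTR replicate 2 left out. Dhx58 shares 141 exon bases with Dhx58os on the opposite strand, which stood at 0.79 to 3.79 CPM, and whether reads were counted by strand is not given in the sources used here.

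Mavs and Tbk1, the adaptor and the kinase below the helicases, differed in how far the EMT6-PTR tumors spread. Mavs (ENSMUSG00000037523.13, chr2:131234063-131248025, plus strand) was at 28.2, 24.6 and 24.7 CPM in EMT6-P and 24.1, 25.6 and 19.0 CPM in EMT6-PTR, with overlapping groups and the lowest value in EMT6-PTR replicate 3. The log2 difference was -0.18 (SE 0.17, 95% interval -0.57 to 0.22, adjusted p = 0.670), or -0.058 with EMT6-PTR replicate 3 left out. Its coefficient of variation was 7.99% over the EMT6-P and 15.3% over the EMT6-PTR tumors. Tbk1 (ENSMUSG00000020115.3, chr10:121546455-121586787, minus strand) was at 40.3, 44.8 and 41.6 CPM in EMT6-P and 45.9, 42.8 and 48.1 CPM in EMT6-PTR. Here EMT6-PTR replicate 2 was the lowest of its group, and the groups overlapped. Its log2 difference of 0.11 had the narrowest interval of the 9 genes, -0.18 to 0.40 (SE 0.12, adjusted p = 0.715), and it was 0.068 to 0.16 with single tumors left out. Tbk1 had a coefficient of variation of 5.47% over the EMT6-P tumors and 5.82% over the EMT6-PTR tumors, beside a counting error of up to 3.61%, and 94.8% of all genes tested had a larger SD among the EMT6-PTR tumors on the log2 scale.

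The interferon regulatory factors that TBK1 phosphorylates differed from each other in how far the tumors spread. Irf3 (ENSMUSG00000003184.15, chr7:44997648-45002848, plus strand) was at 36.3, 33.8 and 38.0 CPM in EMT6-P and 36.9, 29.9 and 26.9 CPM in EMT6-PTR, so that EMT6-PTR replicates 2 and 3 lay below the EMT6-P range and replicate 1 inside it. Its log2 difference was -0.21 (SE 0.16, 95% interval -0.59 to 0.18, adjusted p = 0.604). Leaving out EMT6-PTR replicate 1 made it -0.35, and leaving out replicate 3 of that group made it -0.11. Irf7 (ENSMUSG00000025498.15, chr7:141262706-141266481, minus strand) was at 64.4, 71.6 and 37.3 CPM in EMT6-P and 55.2, 152 and 84.6 CPM in EMT6-PTR. Replicates 2 and 3 of EMT6-PTR lay above every EMT6-P tumor and replicate 1 below the highest 2 of them. The means were 57.7 ± 18.1 CPM and 97.2 ± 49.5 CPM (SD, n = 3 each), and the log2 difference of 0.75 was the highest among the members (SE 0.41, 95% interval -0.24 to 1.75, adjusted p = 0.501). Without EMT6-PTR replicate 2 it was 0.28. Irf3 shares 88 exon bases with Bcl2l12 and Irf7 shares 45 with Phrf1, both on opposite strands. Phrf1 stood at 47.0 to 58.4 CPM and Bcl2l12 at 4.44 to 8.46 CPM.

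Zbp1 and Eif2ak2 act on cell death and translation. Zbp1 (ENSMUSG00000027514.14, chr2:173206612-173218923, minus strand) was at 52.2, 40.6 and 44.0 CPM in EMT6-P and 37.3, 92.1 and 20.6 CPM in EMT6-PTR. The EMT6-PTR values enclosed the EMT6-P range, with 1 tumor far above it and 2 below. The group means were 45.6 ± 5.99 CPM and 50.0 ± 37.4 CPM (SD, n = 3 each), and the log2 difference of 0.13 (SE 0.51, 95% interval -1.09 to 1.36, adjusted p = 0.931) changed sign with the processing. It was -0.65 without EMT6-PTR replicate 2, -0.17 with limma-voom and -0.15 with the replicate number as a block. Its coefficient of variation reached 74.8% in EMT6-PTR, from 13.1% in EMT6-P, and 11.7% of all genes had a larger SD among the EMT6-PTR tumors on the log2 scale. Eif2ak2 (ENSMUSG00000024079.4, chr17:78852564-78882573, minus strand) was at 47.4, 43.3 and 50.1 CPM in EMT6-P and 43.9, 65.4 and 50.2 CPM in EMT6-PTR, with replicate 2 well above the EMT6-P range and replicate 3 at its upper edge. The log2 difference was 0.18 (SE 0.18, 95% interval -0.25 to 0.61, adjusted p = 0.681), or 0.0071 with EMT6-PTR replicate 2 left out. Eif2ak2 shares 174 exon bases with Gm26637 and 47 with n-R5s29 on the opposite strand.

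**Figure D2:**
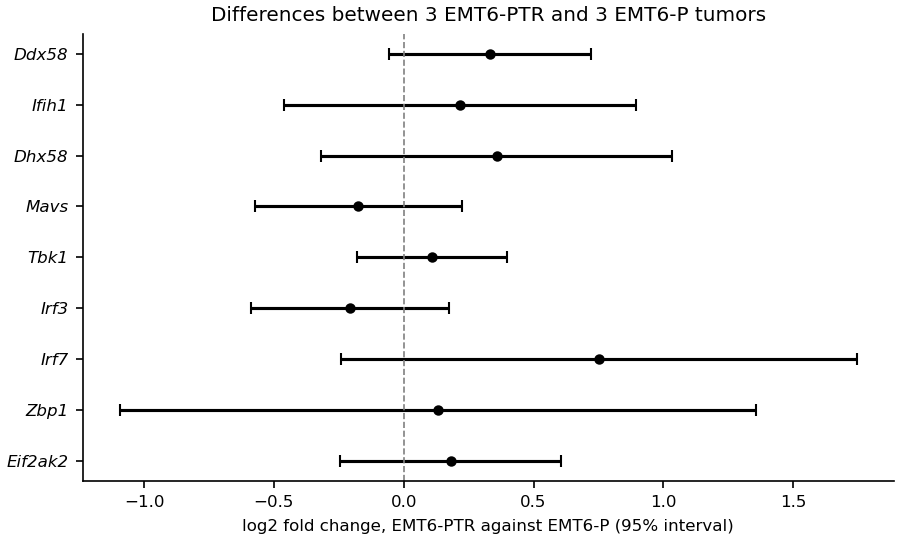
Log2 fold change of EMT6-PTR against EMT6-P on the horizontal axis for each gene, from edgeR, with 3 tumors a group and bars for the 95% interval. Every interval includes 0, from the narrow one of Tbk1 (-0.18 to 0.40) to the wide one of Zbp1 (-1.09 to 1.36).

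The EMT6-PTR tumors were also compared with EMT6-P one at a time. EMT6-PTR replicate 2 exceeded the whole EMT6-P range for 6 of the 9 genes and lay under it for 1, Irf3, against 33.8% and 38.1% of all genes. Relative to the EMT6-P mean on the log2 scale, it was at 1.39 for Irf7, 1.01 for Zbp1, 0.75 for Dhx58, 0.71 for Ifih1, 0.56 for Ddx58 and 0.48 for Eif2ak2. For the remaining members it was at 0.018 for Tbk1, -0.012 for Mavs and -0.27 for Irf3, so that the 6 genes known as interferon-induced were the 6 that stood above the EMT6-P range in this tumor. This tumor also held the 13.8% of counts on CT010467.1. With that gene left out before scaling, the fitted log2 differences were 0.75 for Irf7, 0.22 for Ifih1 and 0.13 for Zbp1, the same as with it. The tumor also had the highest T cell, B cell and lung marker sums among the tumors, and the part of these sums in its values was not tested.

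EMT6-PTR replicate 1 was close to EMT6-P throughout. Its log2 values against the EMT6-P mean ran from -0.29 for Zbp1 to 0.18 for Ddx58, with 2 genes above and 2 below all EMT6-P tumors, against 32.6% and 32.5% of all genes. EMT6-PTR replicate 3 was mixed among the interferon-induced members. On the same scale, Irf7 at 0.55, Dhx58 at 0.37, Ddx58 at 0.23 and Eif2ak2 at 0.098 lay above every EMT6-P tumor, Ifih1 at -0.12 lay within their range and Zbp1 at -1.14 lay below it. For Eif2ak2 this was 50.2 CPM against a highest EMT6-P value of 50.1 CPM, a gap inside its counting error of up to 3.28%. In total 5 genes lay above and 3 below all EMT6-P tumors in that library, against 39.8% and 42.7% of all genes. Its pan-leukocyte and epithelial marker sums were the lowest among the tumors and its fibroblast sum the highest, and their part in its values was not tested.

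**Figure D3:**
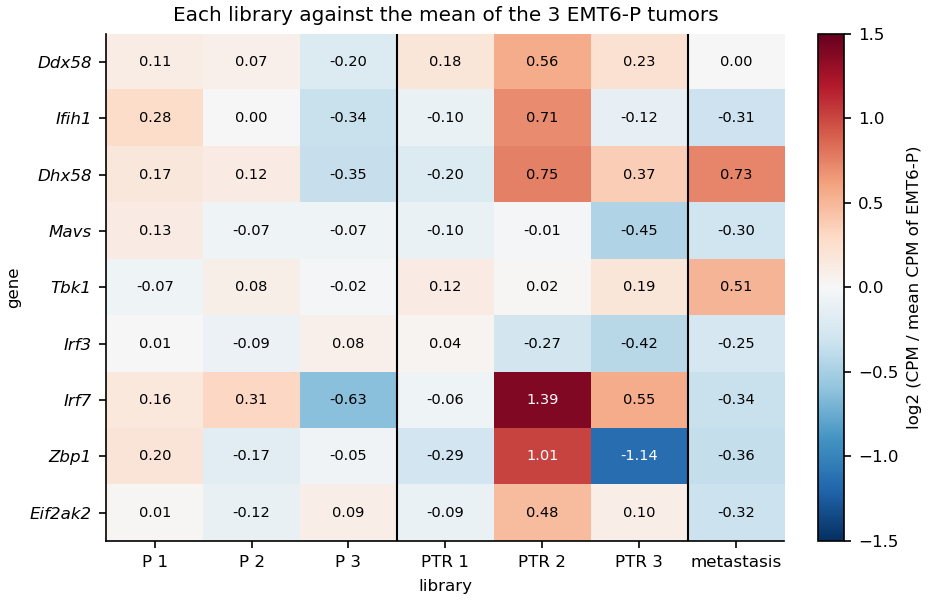
Log2 of the CPM in each library over the mean CPM of the 3 EMT6-P tumors, for the 9 genes in rows and the 7 libraries in columns, with red above and blue below the EMT6-P mean. The column of EMT6-PTR replicate 2 is red for the interferon-induced genes, with 1.39 for Irf7, and that of EMT6-PTR replicate 3 holds the lowest value, -1.14 for Zbp1.

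The overlap between groups depended on which tumors were counted. Without EMT6-PTR replicate 1, the groups were apart for 5 of the 9 genes, Ddx58, Dhx58, Irf7 and Eif2ak2 upward and Irf3 downward, against 38.5% of all genes. Eif2ak2 was apart only narrowly, with 50.2 CPM in EMT6-PTR replicate 3 and 50.1 CPM in EMT6-P replicate 3 on the scale of all 7 libraries. Without EMT6-PTR replicate 2 they were apart for 4, Ddx58 and Tbk1 upward and Mavs and Zbp1 downward, against 30.0%. Without EMT6-P replicate 2 they were apart for 2, Ddx58 and Tbk1, against 27.8%. Ddx58 alone was apart without EMT6-PTR replicate 3, where 2894 of 15941 genes were apart upward and 3447 downward. It was also alone without EMT6-P replicate 1, against 1924 genes upward and 2154 downward of 16109. The same held without EMT6-P replicate 3, against 2162 upward and 2537 downward of 16098. Leaving out single tumors moved the log2 difference of Ddx58 between 0.20 and 0.40.

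Levels were compared between genes as CPM per kilobase of exon, with exons joined over all annotated transcripts of a gene. For Irf7 the joined exons cover the whole gene, 3776 bases, so its level per kilobase is a low estimate. In EMT6-P the order of mean levels was Irf7 at 15.3, Zbp1 at 12.9, Tbk1 at 10.8, Irf3 at 10.5, Eif2ak2 at 9.18, Mavs at 7.72, Ddx58 at 7.11, Dhx58 at 4.96 and Ifih1 at 4.06 CPM per kilobase. Neighbours whose 3 values overlapped were Irf7 and Zbp1, Tbk1 and Irf3, Mavs and Ddx58, and Dhx58 and Ifih1. The values did not overlap between Zbp1 and Tbk1, Irf3 and Eif2ak2, Eif2ak2 and Mavs, or Ddx58 and Dhx58. Irf7 was the first in EMT6-P replicates 1 and 2 but ranked 4 in replicate 3, at 9.87 CPM per kilobase, below Zbp1, Irf3 and Tbk1. Dhx58 and Ifih1 were the lowest in all 3 EMT6-P tumors. The EMT6-PTR means were 25.7 for Irf7, 14.2 for Zbp1 and 11.7 CPM per kilobase for Tbk1, then 10.4 for Eif2ak2, 9.07 for Irf3, 8.95 for Ddx58, 6.84 for Mavs, 6.37 for Dhx58 and 4.73 CPM per kilobase for Ifih1. Irf7 was the first and Ifih1 the last of the 9 in every EMT6-PTR tumor, but Zbp1 was above Tbk1 only in replicate 2, where its value was 26.1 CPM per kilobase, and ranked 4, 2 and 7 in replicates 1 to 3. In the metastasis Tbk1 led at 15.4 CPM per kilobase, followed by Irf7 at 12.1 and Zbp1 at 10.1, and Ifih1 was again the lowest at 3.28.

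Ratios within a library do not depend on its scaling. Their size depends on the exon lengths, which are the same for every library. The inducible factor Irf7 against the constitutive Irf3, per kilobase, was 1.62, 1.93 and 0.895 in EMT6-P, 1.36, 4.63 and 2.87 in EMT6-PTR and 1.38 in the metastasis. EMT6-PTR replicates 2 and 3 lay above the EMT6-P range and replicate 1 within it. Zbp1 against Eif2ak2 was 1.60, 1.36 and 1.27 in EMT6-P and 1.23, 2.04 and 0.595 in EMT6-PTR, with 1.37 in the metastasis, so that EMT6-PTR again enclosed EMT6-P. The ratio of the RNA sensors Ddx58 and Ifih1 was 1.56, 1.85 and 1.92 in EMT6-P, 2.12, 1.58 and 2.22 in EMT6-PTR and 2.17 in the metastasis. Dhx58 against Ifih1, the modulator against the sensor, was 1.13, 1.34 and 1.21 in EMT6-P and 1.14, 1.26 and 1.71 in EMT6-PTR, and reached 2.51 in the metastasis. None of the 4 ratios separated the tumor groups.

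**Figure D4:**
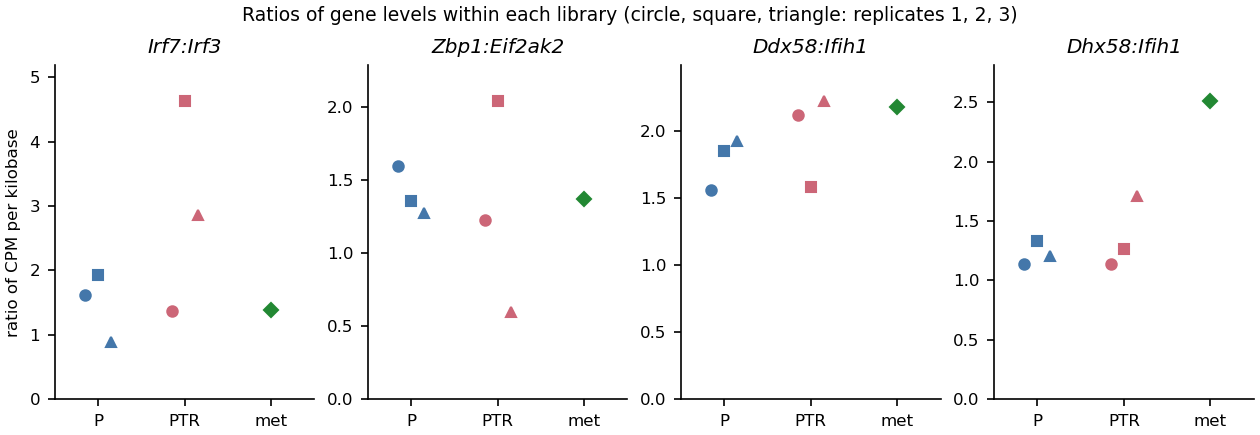
Ratio of CPM per kilobase between 2 members on the vertical axis, in the 3 EMT6-P tumors, the 3 EMT6-PTR tumors and the metastasis, with replicates 1 to 3 as circle, square and triangle. The tumor groups overlap in every panel, with EMT6-PTR replicate 2 highest for Irf7 against Irf3 (4.63) and the metastasis highest for Dhx58 against Ifih1 (2.51).

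The metastasis has no replicate, so its values were set beside the EMT6-PTR range without a test. Only Irf7 differed by 2-fold or more from the EMT6-PTR mean, at 45.7 CPM and a log2 difference of -1.09, while 11.1% of all genes were at least 2-fold below that mean and 10.6% at least 2-fold above. Without EMT6-PTR replicate 2 the difference of Irf7 was -0.61 and 0 members reached 2-fold. Below all 3 EMT6-PTR tumors were 4 members, Irf7, Ddx58 at 50.3 CPM, Ifih1 at 26.8 CPM and Eif2ak2 at 37.5 CPM, against 29.0% of all genes. Tbk1, at 60.0 CPM, alone lay above all 3, against 25.8% of all genes, and it was also the highest of the 7 libraries. Dhx58 at 26.9 CPM, Mavs at 20.9 CPM, Irf3 at 30.2 CPM and Zbp1 at 35.5 CPM were inside the EMT6-PTR range. The log2 difference from the EMT6-PTR mean was -0.49 for Zbp1 and 0.30 without EMT6-PTR replicate 2, and it was -0.050 for Irf3 and 0.088 without EMT6-PTR replicate 1. Against EMT6-P, the metastasis was above all 3 tumors for Dhx58 and Tbk1 and below all 3 for 4 genes, against 39.8% and 43.2% of all genes. The lung and neutrophil markers of this library reached 8767 and 2944 CPM, and their part in these values was not tested.

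The genes around the members in the pathway were read from the same test, and none was called. The counts below stand against 11.4% of all genes at an unadjusted p under 0.05, 52.3% with a log2 difference above 0 and a median of 0.025. All 3 EMT6-PTR values lay above EMT6-P for 9.52% of all genes tested and below for 11.8%. Of 26 tested genes among 27 RNA sensing cofactors and regulators, 20 had a log2 difference above 0 and 6 below, with a median of 0.14, and 1 had an unadjusted p under 0.05. That gene was Itch, a ubiquitin ligase that targets MAVS for degradation, at 49.8, 54.9 and 54.7 CPM in EMT6-P and 66.1, 74.1 and 71.9 CPM in EMT6-PTR (log2 difference 0.41, SE 0.12, edgeR adjusted p = 0.421). All 3 EMT6-PTR tumors lay above EMT6-P for Itch. Rnf125, a ubiquitin ligase of RIG-I and MDA5, had a log2 difference of 0.85 at only 0.42 to 1.25 CPM in the tumors (adjusted p = 0.479). Ddx60, a helicase linked to RIG-I signaling, had 0.59 (adjusted p = 0.501).

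Among 18 kinases and adaptors between sensor and IRF, 6 were above 0 and 12 below, with a median log2 difference of -0.098. Tradd, an adaptor that joins the MAVS complex, was at 24.1, 21.6 and 22.0 CPM in EMT6-P and 17.5, 15.2 and 18.3 CPM in EMT6-PTR, with all 3 EMT6-PTR tumors below EMT6-P (log2 difference -0.41, SE 0.15, edgeR adjusted p = 0.427). Traf6, a ubiquitin ligase of the same complex, had a log2 difference of 0.48 with overlapping groups. Tax1bp1, an adaptor that recruits Itch to MAVS, had 0.30 with all EMT6-PTR values above EMT6-P (adjusted p = 0.471 and 0.474).

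The 19 genes of cytosolic DNA sensing were split, with 10 above 0 and 9 below, a median of 0.028, and 2 up and 3 down at an unadjusted p under 0.05. The groups were apart upward for 1 of the 19 and downward for 4, against 9.52% and 11.8% of all genes. Of ribonuclease H2, which removes ribonucleotides from DNA, the B and C subunits had all EMT6-PTR values below EMT6-P and the A subunit did not. Rnaseh2c was at 15.7, 15.2 and 16.4 CPM against 11.3, 8.74 and 9.85 CPM (log2 difference -0.66, SE 0.17, edgeR adjusted p = 0.421). Rnaseh2b was at 13.5, 11.5 and 12.4 CPM against 9.51, 8.41 and 7.74 CPM (log2 difference -0.54, SE 0.18, edgeR adjusted p = 0.427). Rnaseh2a, the catalytic subunit, was at 38.8, 35.8 and 33.2 CPM against 26.8, 19.9 and 37.7 CPM, with overlapping groups (log2 difference -0.35, SE 0.24, edgeR adjusted p = 0.570). Aim2, the DNA sensor of an inflammasome, was at 42.2, 36.5 and 46.6 CPM in EMT6-P and 43.8, 76.4 and 106 CPM in EMT6-PTR (log2 difference 0.85, SE 0.32, edgeR adjusted p = 0.427). EMT6-PTR replicate 1 lay within the EMT6-P range of Aim2 and the other 2 above it. The central DNA sensor Cgas (Mb21d1) was at 13.5, 10.2 and 10.0 CPM in EMT6-P and 13.5, 11.2 and 4.45 CPM in EMT6-PTR, and its adaptor STING (Tmem173) at 71.8, 60.8 and 74.9 CPM and 68.9, 74.5 and 40.7 CPM. For both, EMT6-PTR replicate 3 was the lowest of the 6 tumors.

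Of 12 genes of necroptosis and translation control that act with Zbp1 and Eif2ak2, 4 were above 0 and 8 below, with a median of -0.11 and none at an unadjusted p under 0.05. Ripk3, the kinase that ZBP1 engages, was at 17.7, 13.9 and 15.2 CPM in EMT6-P and 13.6, 10.7 and 3.28 CPM in EMT6-PTR. All 3 EMT6-PTR tumors lay below EMT6-P, and replicate 3, where Zbp1 was also lowest, was far below the rest (log2 difference -0.77, SE 0.49, edgeR adjusted p = 0.545). Eif2b1, a subunit of the exchange factor that restores eIF2, had a log2 difference of -0.30 with the groups apart, and Eif2ak4, another eIF2α kinase, had 0.28 with overlapping groups (adjusted p = 0.483 and 0.529).

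The interferon genes themselves were at the limit of detection. None of 20 type I and III interferon genes passed the filter, and 17 had 0 counts in all 7 libraries, which allows up to 3 counts in each, by counting error alone. Ifnb1 had 1, 1 and 3 counts in EMT6-P, 0, 5 and 1 in EMT6-PTR and 0 in the metastasis, so that a difference was not detectable at this depth. Ifna1 had 0, 2 and 4 counts in EMT6-P and 0 in every EMT6-PTR library, and Ifne had at most 1 count in any library.

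Of 16 tested genes among 17 interferon regulatory factors and ISGF3 components, the factors that interferon receptors act through, 12 were above 0 and 4 below, with a median of 0.097. Stat2 was at 57.4, 36.4 and 38.2 CPM in EMT6-P and 49.3, 112 and 58.4 CPM in EMT6-PTR (log2 difference 0.73, SE 0.35, edgeR adjusted p = 0.467). Irf9 was at 31.7, 28.1 and 26.6 CPM and 25.4, 50.4 and 20.8 CPM (log2 difference 0.16, SE 0.34, edgeR adjusted p = 0.861). Both Stat2 and Irf9 had their highest value of the 7 libraries in EMT6-PTR replicate 2, and Irf9 its lowest in replicate 3. The receptor chains Ifnar1 and Ifnar2 had log2 differences of 0.0049 and 0.059, with overlapping groups. Tyk2, a kinase bound to IFNAR1, had 0.12 with all 3 EMT6-PTR values above EMT6-P, and Irf2bp2, a partner of IRF2, had -0.24 (adjusted p = 0.697 and 0.533).

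Profiles over the 7 libraries were compared by the root mean square difference of log2 CPM after subtracting each gene's mean, as a description over libraries that differ in depth and in marker levels. Among the members, Irf3 and Mavs were closest at 0.132, then Ddx58 and Eif2ak2 at 0.187 and Ddx58 and Ifih1 at 0.195, and Irf3 and Irf7 were farthest at 0.722. Over all genes tested, the profile closest to Irf7 was that of Mx1, a dynamin-like GTPase induced by interferon, at 0.231, followed by Clec2f at 0.236 and Ifi44 at 0.242. Ifih1 was closest to Oasl1 at 0.086, Sgms2 at 0.109 and Dtx3l at 0.11. Dhx58 was closest to Gclm, Parp10 and Pdk1 at 0.109 to 0.127. Zbp1 had Angptl6, Tmem26 and Ptpn7 at 0.206 to 0.225. Some of these neighbours had few counts. The means over the 7 libraries were 5.48 CPM for Mx1, 3.41 CPM for Clec2f, 2.59 CPM for Angptl6 and 1.34 CPM for Tmem26.

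The other members were flatter over the libraries. Their own root mean square about the mean was 0.173 to 0.230, against 0.340 to 0.610 for those above. By construction, flat profiles lie close to each other. Mavs was closest to Coa7, Mpp1 and Psmc6 at 0.038 to 0.050, and Irf3 to Cpsf4, Bahd1 and Gm10167 at 0.034 to 0.045. Tbk1 had Mau2, Slc31a1 and Dnase2a at 0.058 to 0.069, and Eif2ak2 had Gtf3c4, Prkaa1 and Rnmt at 0.048 to 0.078. Ddx58 was closest to Acot2 at 0.084 and to Gm11007 and Gm2007 at 0.087. The last 2 had identical values in every library, with a mean of 2.55 CPM.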

How the data were processed

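The deposited values were estimated counts per gene, which the authors made from stranded polyadenylated RNA libraries with STAR 2.6.0a and RSEM 1.3.1 after FastQC 0.11.5, per the submitters' processing notes, on GRCm38 with GENCODE M16. Between 13.5% and 15.6% of values per library were fractional. Symbols, positions and exon lengths came from GENCODE M21 (53360 of 53465 identifiers matched). Counts were rounded, and genes passing filterByExpr entered the quasi-likelihood functions of edgeR 4.0.16 (R 4.3.3) under upper-quartile scaling. A gene was called at a Benjamini-Hochberg adjusted p under 0.05. The SE was the log2 difference divided by the square root of F. The fit was also run on simulated counts, and the outcome of that run is not reported here. Alternatives used DESeq2 1.42.0, limma-voom (limma 3.58.1), TMM scaling, other filters, the metastasis as a group, the replicate number as a block, omission of CT010467.1, and each tumor left out.

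The 9 genes and all lists were chosen with earlier results of these data known. Named genes are the 9, up to 3 genes of each pathway list with the smallest p, Ifnb1, Ifnar1, Ifnar2, Stat2, Irf9, Mb21d1 and Tmem173, the most abundant gene of each marker list, and the 3 nearest profiles of each member. The plasmacytoid dendritic cell markers other than Cox6a2, Cd8a, the lung markers other than Scgb1a1, Rnaseh2a, Ifna1 and Ifne were named after their values were seen. P-values measure only the spread between these samples, which may be technical. One further gene that the rule names is not reported here.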

Additional observations from a re-analysis of the deposited data

How the results depend on the processing

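Under the 14 alternatives, 0 of the 9 genes were called, with a smallest adjusted p of 0.248, and 122 of 126 log2 differences kept their direction. DESeq2 called 281 genes (138 up, 143 down) and every other alternative called 0. The 4 reversals were Zbp1 with limma-voom (-0.17), with the replicate block (-0.15) and without EMT6-PTR replicate 2 (-0.65), and Ifih1 without EMT6-PTR replicate 2 (-0.11). With each tumor left out in turn, 1 to 5 members had groups apart. The 5 came without EMT6-PTR replicate 1, where 38.5% of all genes were apart. Without EMT6-PTR replicate 3 it was 1 member, while 2894 of 15941 genes were apart upward and 3447 downward. With each EMT6-PTR tumor left out, 0 to 1 differed by 2-fold in the metastasis. Leaving out a tumor moved the log2 difference of Ifih1 between -0.11 and 0.38, of Irf7 between 0.28 and 1.03, of Zbp1 between -0.65 and 0.50, of Dhx58 between 0.11 and 0.57 and of Eif2ak2 between 0.0071 and 0.30. Tumors of the same number correlated at 0.26, 0.25 and 0.038 in their deviations from the group means, not over 0.1 in every pair, and the numbers were not taken to pair the tumors. Pairs of different numbers ran from -0.29 to 0.098, so replicates 1 and 2 of each group correlated best with their own number. EMT6-P replicate 3 correlated better with EMT6-PTR replicate 1 (0.098) than with its own number. The replicate block called 0 genes, as without it, and changed no other direction among the members. With 3 tumors a group and the spread among EMT6-PTR tumors, the intervals allow differences of either sign for every member.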
